A study of Mus musculus with 9 samples.

Results

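MHC class II molecules carry peptides to the surface of antigen-presenting cells, where CD4+ T cells read them. Each molecule is an α chain joined to a β chain. The chains are assembled on the invariant chain Cd74, the peptide is exchanged with the help of H2-DM, and H2-DO holds H2-DM back. The transactivator Ciita, which binds no DNA itself, switches the whole set on through factors that sit on a conserved promoter module. In muscle at rest the genes are mostly used by dendritic cells, macrophages and B cells, whereas the fibers use little of them. The genes described here are the α and β chains H2-Aa, H2-Ab1 and H2-Eb1, the exchange factor genes H2-DMa and H2-DMb1, the H2-DO chains H2-Oa and H2-Ob, Cd74 and Ciita. They were taken through the array's annotation, as every probe set with exactly 1 gene symbol that was one of these 9. This gave 16 probe sets of 8 genes, of 45101 probe sets in all. A probe set is a group of short DNA probes for a transcript. H2-DMb1 had no probe set of its own, since both probe sets that carry its name also carry that of H2-DMb2, and it is left out of all values below. Another shared probe set carries H2-Ob and a predicted gene.

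RNA of the tibialis anterior muscle of 15-week-old male C57BL/6J mice was hybridised to Affymetrix GeneChip arrays, with 3 mice per group in 3 groups and an array for every mouse. All mice were housed singly and ate an AIN93-based diet for 5 d before 7 d of daily intraperitoneal injection. The control group was injected with saline, the DEX group with the synthetic glucocorticoid dexamethasone (DEX) at 5 mg/kg, and the DEX + TE group with the same dose of DEX on a diet with 2% turmeric extract (TE). The sample labels describe TE as given after DEX, whereas the methods start the TE diet before it. The array mice were those with body and muscle weights near the average, and no group received TE without DEX. The members were chosen on measured values, since earlier results of these arrays were known, among them a lower H2-Aa signal in the DEX group than in the control group. The other comparisons share arrays with that one, so all values of the members, counts of calls included, are a description with no p-value printed for any member, and no test here is independent of the choice.

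The values are linear signals, and a signal of 50 is the minimum that the methods name. Of the 16 probe sets, 11 had a group mean of at least 50 on the log2 scale and were tested among 29269 probe sets of the array. The other 5 were dim: 1443783_x_at of H2-Aa, 1425477_x_at of H2-Ab1, 1459872_x_at of H2-DMa, 1447075_at of Ciita and the single probe set of H2-Ob. A probe set that passed through 1 group alone had to differ between groups, so counts over the 11 are no support for a direction. This holds for H2-Ab1 1451721_a_at, through the control group, and for Ciita 1421211_a_at and 1421210_at, through the DEX + TE group. The median signal of an array ranged from 71.5 to 95.0, and 58.5% to 65.2% of probe sets were at 50 or more. By group the medians were 76.2 to 86.4 (control), 71.5 to 77.7 (DEX) and 84.7 to 95.0 (DEX + TE). Actin has probe sets near either end of its transcript, and the log2 ratio of 3′ over 5′, which follows RNA quality, was 0.25 to 0.33 (control), 0.10 to 0.43 (DEX, lowest on replicate 1) and 0.38 to 0.54 (DEX + TE). The muscle label was borne out by the fiber genes, such as the creatine kinase Ckm with signals of 39483 to 73811.

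The promoter module of the family is shown first, because most class II genes share it. RefSeq promoter windows of GRCm38.p6, from 250 bases before to 50 after the start site, were used for 6 of the 9 genes (H2-Aa, H2-Eb1, H2-DMa, H2-DMb1, H2-Oa and H2-Ob). No window of H2-Ab1, Cd74 or Ciita was used. The Y box, which the factor NF-Y binds, has the core ATTGG, and the X box, which the RFX complex binds, was searched as ACNGATG, both on either strand. The longer Y box core TGATTGG, which contains ATTGG and was chosen after the sequences were seen, stood in 5 of the 6 genes, all but H2-DMa, and in 7.82% of all 32851 windows. It began 45 to 63 bases before the start site, on the strand of the gene. Each stretch below runs 5′ to 3′ on the strand of its gene and holds 67 bases, with TGATTGG and ACNGATG in capitals. The stretches lie at chr17:34287857-34287923 (H2-Aa, minus strand), chr17:34305756-34305822 (H2-Eb1, plus strand), chr17:34153078-34153144 (H2-DMb1, plus strand), chr17:34238796-34238862 (H2-Ob, plus strand) and chr17:34092284-34092350 (H2-Oa, plus strand).
H2-Aa: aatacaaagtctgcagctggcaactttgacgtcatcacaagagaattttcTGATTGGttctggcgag
H2-Eb1: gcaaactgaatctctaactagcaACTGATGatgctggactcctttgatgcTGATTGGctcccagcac
H2-DMb1: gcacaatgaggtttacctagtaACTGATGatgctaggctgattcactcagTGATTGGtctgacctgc
H2-Ob: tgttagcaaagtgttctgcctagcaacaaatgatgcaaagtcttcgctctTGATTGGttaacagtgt
H2-Oa: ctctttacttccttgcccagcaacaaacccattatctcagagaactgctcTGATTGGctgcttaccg
The X box core was followed within 40 bases by the Y box core in H2-Eb1 and H2-DMb1, with 29 and 30 bases between their first bases. This order was present in 0.253% of all windows. The short Y box core ATTGG was in all 6 genes but also in 37.4% of all windows. The X box core was in 4 of the 6 (9.85% of windows), of which only H2-Eb1 and H2-DMb1 had it in this order. The X2 box core TGACG was in H2-Aa alone (20.8%), and the S box core GGACC in all but H2-Aa (45.5%). A match of letters is a description and not a measured site, and a window with no match can hold a variant that was not searched. Genes with the longer Y box core were among both the bright and the dim members described below.

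H2-Aa, the α chain of the I-A molecule, had the largest difference of the family between DEX and control. The signals of 1435290_x_at were 733, 1523 and 1338 in control mice, 94.9, 203 and 198 in DEX mice and 343, 421 and 294 in DEX + TE mice. The groups did not overlap, with the control mice highest, the DEX + TE mice between and the DEX mice lowest. The means were 1198 ± 413 (SD, n = 3), 165 ± 60.9 and 353 ± 64.0, so the DEX group was 7.32-fold lower than the control group on the log2 scale (log2 fold change −2.87 ± 0.38, SE). The signals of 1438858_x_at were 351, 523 and 410.0 in control mice, 45.1, 203 and 163 in DEX mice and 86.8, 115 and 156 in DEX + TE mice. Here the control mice were again highest, but the DEX and DEX + TE mice overlapped. The third probe set, 1452431_s_at, had signals of 88.2, 235 and 173 in control mice, 5.04, 54.4 and 66.3 in DEX mice and 128, 53.6 and 57.6 in DEX + TE mice. The fourth, 1443783_x_at, was below 50 on all 9 arrays. Probe sets whose names end in _x_at or _s_at can also bind transcripts of related genes.

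**Figure D1:**
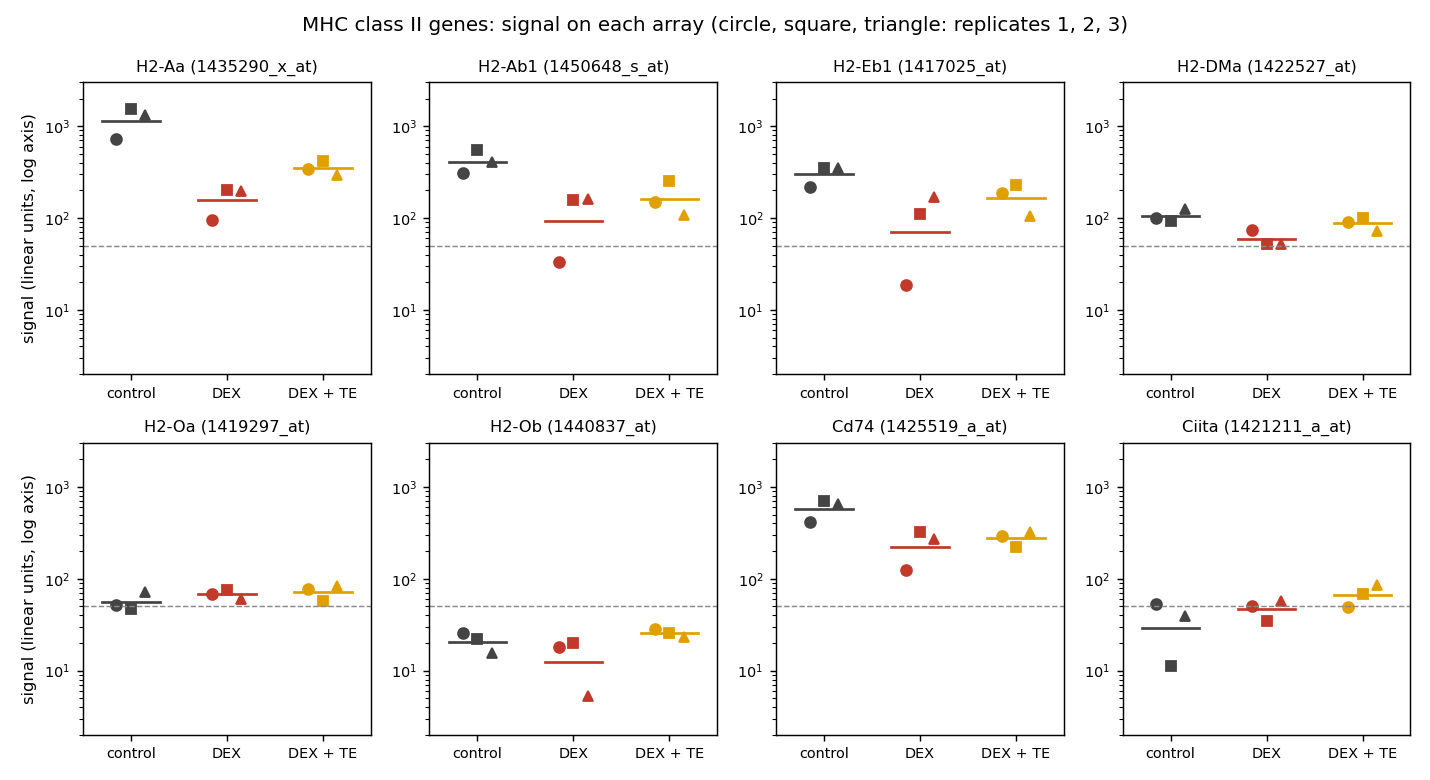
Signal (log axis, linear units of the deposited file) of the brightest probe set of each of the 8 genes on the 9 arrays. Points are mice, bars are group means on the log2 scale and the dashed line is a signal of 50. H2-Aa, H2-Ab1, H2-Eb1 and Cd74 have their highest group mean in the control mice and their lowest signal on DEX replicate 1, and 1 DEX + TE mouse is above the lowest control mouse for H2-Eb1, whereas H2-Ob is below 50 on every array.

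H2-Ab1, the β chain that joins H2-Aa, showed the same order of control and DEX mice. The signals of 1450648_s_at were 305, 549 and 411 in control mice, 33.1, 157 and 159.8 in DEX mice and 149.9, 249.9 and 109 in DEX + TE mice. Each control mouse was above each mouse of the other groups, which overlapped with each other. H2-Eb1, the β chain of the I-E molecule, had signals of 220.1, 347 and 349 in control mice, 18.5, 112 and 169 in DEX mice and 186, 228 and 105 in DEX + TE mice. The control and DEX mice did not overlap, whereas 1 DEX + TE mouse was above the lowest control mouse. The log2 fold change of DEX against control was −2.13 ± 0.64 (SE) for H2-Ab1 and −2.09 ± 0.78 for H2-Eb1. A second probe set of H2-Ab1, 1451721_a_at, had signals of 84.6, 197 and 114 in control mice and 50.3, 67.4 and 20.1 in DEX mice. Its log2 fold change was −1.60 ± 0.67. The filter kept it through the control group alone, so nothing is read from it. The partner of H2-Eb1 in the I-E molecule is H2-Ea, whose gene is known to be defective in this strain. Its signals were 6.31 to 55.4 over the 9 arrays.

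Cd74, the invariant chain that escorts newly made class II molecules, had signals of 420.2, 705 and 644 in control mice, 125, 322 and 269 in DEX mice and 295, 223 and 325 in DEX + TE mice. All 6 DEX-injected mice were below all 3 control mice, and the DEX and DEX + TE mice overlapped. Its log2 fold change was −1.38 ± 0.38 (SE) for DEX against control. H2-DMa, the α chain of the peptide exchange factor, had signals of 101, 92.0 and 124 in control mice, 74.1, 52.2 and 51.8 in DEX mice and 91.2, 100.4 and 72.9 in DEX + TE mice. The control and DEX mice did not overlap, and the DEX + TE mice overlapped with both. The log2 fold change of H2-DMa was smaller, at −0.84 ± 0.20.

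The remaining members were near or below the minimum. H2-Oa, the α chain of H2-DO, had signals of 46.5 to 72.4 in control mice, 60.4 to 75.0 in DEX mice and 56.8 to 82.4 in DEX + TE mice, and all groups overlapped. H2-Ob, the β chain of H2-DO, was between 5.31 and 28.3 on the 9 arrays, so no fold is given. Ciita, the transactivator of the family, was dim on all its probe sets. The signals of 1421211_a_at were 53.7, 11.3 and 39.7 in control mice, 50.5, 34.4 and 57.7 in DEX mice and 48.9, 67.6 and 86.5 in DEX + TE mice. Those of 1421210_at were 5.47, 25.4 and 4.87, then 28.4, 44.6 and 33.2, and then 72.3, 48.5 and 76.8. The groups did not overlap on 1421210_at, in an order opposite to that of H2-Aa for DEX against control, but every control and DEX array was below 50. Against 50, the DEX + TE group was at least 1.29-fold higher. The filter kept 1421211_a_at and 1421210_at through the DEX + TE group alone, so nothing is read from that fold. The third Ciita probe set, 1447075_at, exceeded 50 on 1 array, a control array with a signal of 74.8. No Ciita probe set reached a mean of 50 on the log2 scale in the control or the DEX group, so no direction between these groups is read for Ciita.

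**Figure D2:**
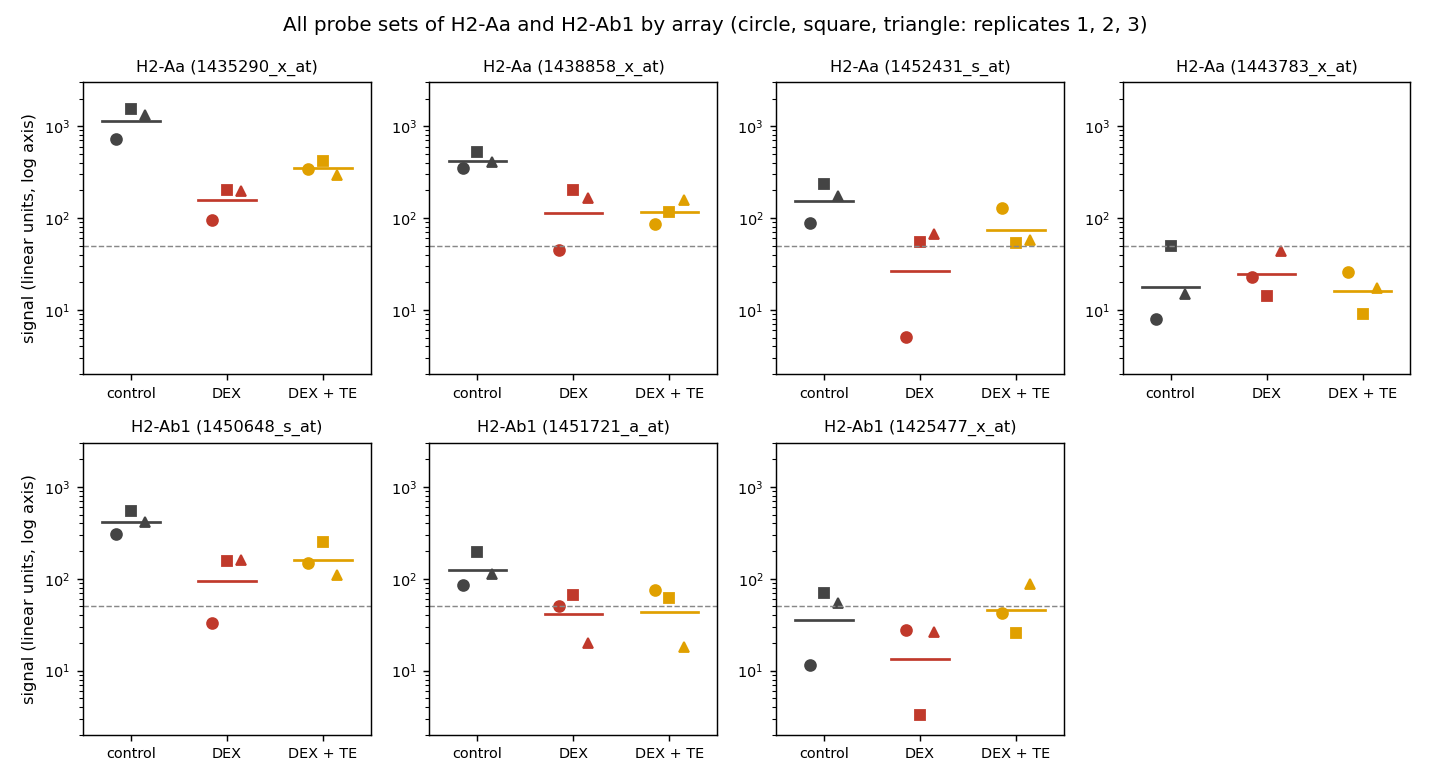
Signal (log axis) of the 4 probe sets of H2-Aa and the 3 of H2-Ab1 on each array, brightest first. Points are mice, bars are group means on the log2 scale and the dashed line is a signal of 50. The control mice are highest on 1435290_x_at and 1438858_x_at of H2-Aa and on 1450648_s_at and 1451721_a_at of H2-Ab1. On 1452431_s_at of H2-Aa they are above the DEX mice, but 1 DEX + TE mouse is above the lowest control mouse. The dimmest probe set of each gene does not separate the groups.

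In counts, limma called 1 of the 11 probe sets lower in the DEX group than in the control group, the H2-Aa probe set 1435290_x_at. Of all probe sets tested, 0.27% were called lower. A call is an adjusted p under 0.05 with a log2 fold change of 0.6 or more in either direction. Each DEX mouse was below each control mouse for 8 of the 11 probe sets, those of H2-Aa, H2-Ab1, H2-Eb1, H2-DMa and Cd74, where 12.1% of all probe sets were so ordered. Each DEX mouse was above for 1, Ciita 1421210_at (9.07% of all). Rank Product, the test that the methods name, was run here on the deposited values, which are not the summary that the methods describe. It called 0 of the 11 and 0.215% of all, 29 probe sets higher and 34 lower. These are not the counts of the authors' own run. Over the 8 genes with 1 probe set each, the median log2 fold change was −1.11, beside −0.03 over all 13662 genes tested. The 8 include H2-Ob, which was not tested, and over the tested members the median was −1.38. The members were proposed on this comparison, so nothing is read from these counts. In whole muscle, fewer cells that use these genes and less RNA per cell cannot be told apart. The H2-Aa count of 1 was found in 7 of 17 other limma settings and in 1 of 9 refits without 1 array, that without control replicate 1, again as a description. DEX replicate 1 had the lowest signal of all 9 arrays for H2-Aa 1435290_x_at, H2-Ab1 1450648_s_at, H2-Eb1 and Cd74. Without it the log2 fold changes were −2.51, −1.37, −1.12 and −0.97, and that of H2-Aa 1452431_s_at was −1.35 in place of −2.54. It also had the lowest median signal and the lowest actin ratio of the arrays, whose part in these values was not tested.

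**Figure D3:**
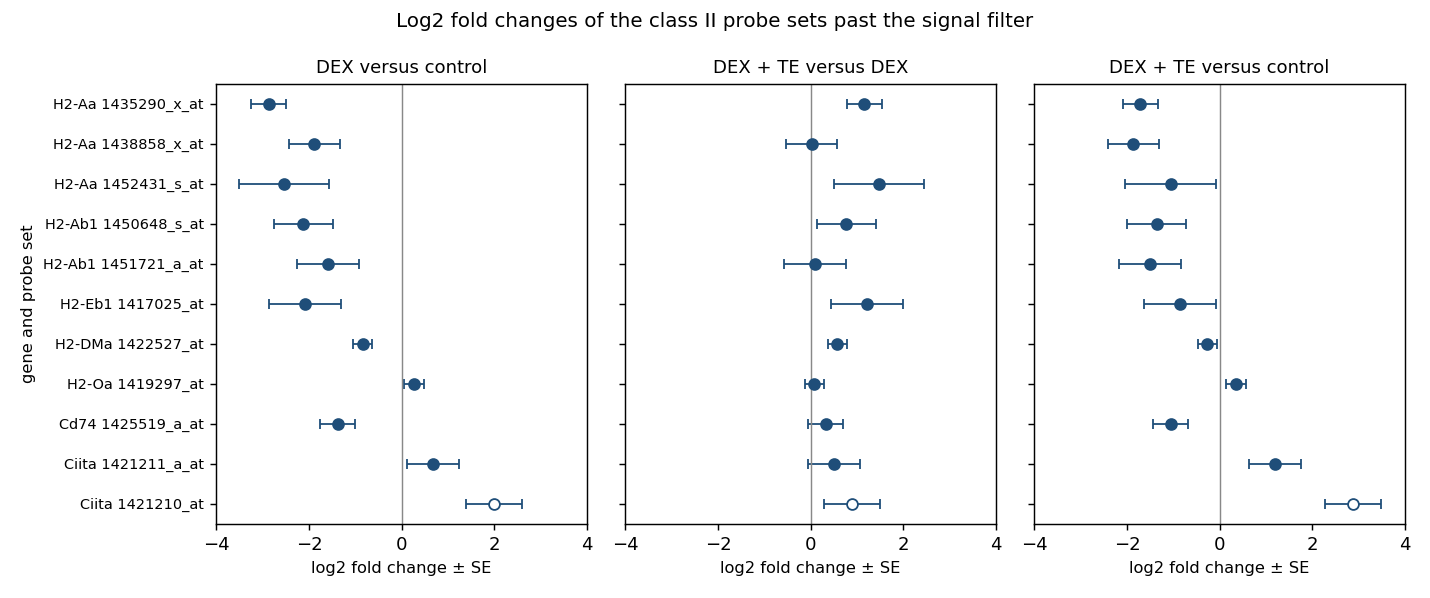
Log2 fold changes with their standard errors for the 11 probe sets tested, in the 3 comparisons. An open point means that at least 1 of the groups compared was below 50 on every array. The H2-Aa probe sets lie between −2.87 and −1.88 for DEX against control and between 0.02 and 1.48 for DEX + TE against DEX, where the 1.48, of 1452431_s_at, is 0.29 without DEX replicate 1.

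The comparison of DEX + TE with DEX sets the turmeric diet against the standard diet in DEX-injected muscle. The members were chosen with low H2-Aa on these DEX arrays known, which favours higher values in the DEX + TE mice, so nothing is read from the counts. Limma called 0 of the 11 probe sets, beside 0.0137% of all, and Rank Product called 0, beside 0.14% of all. With no adjustment, 2 had a p under 0.05, H2-Aa 1435290_x_at and H2-DMa, both higher, where 6.2% of all probe sets were higher at that level. The log2 fold change was 1.16 ± 0.38 (SE) for H2-Aa 1435290_x_at and 0.58 ± 0.20 for H2-DMa. With arrays centred or quantile-normalized that of H2-DMa was 0.33 and 0.32. For H2-Ab1 1450648_s_at the log2 fold change was 0.77 ± 0.64 and for H2-Eb1 1.23 ± 0.78. These values were 0.01 and 0.26 without DEX replicate 1. Cd74 had 0.33 ± 0.38, and −0.09 without that array. Each DEX + TE mouse was above each DEX mouse for 2 of the 11, H2-Aa 1435290_x_at and Ciita 1421210_at, where 10.1% of all probe sets were so ordered. That Ciita probe set was kept by the filter through the DEX + TE group alone. The probe sets of H2-Aa gave unequal values, since that of 1438858_x_at was 0.02 ± 0.55. By value all 11 were higher in the DEX + TE group, as were 17304 of the 29269 tested. With arrays centred on their medians the values of H2-Aa 1438858_x_at, H2-Ab1 1451721_a_at and H2-Oa were −0.23, −0.15 and −0.17. The median over the 8 genes was 0.67 (0.58 over the tested members, without H2-Ob), beside 0.04 over all genes tested. With the arrays so centred the medians over the 8 genes and over all genes tested were 0.42 and −0.22.

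DEX + TE with control compares the same control mice with the mice given both agents. It shares the control arrays with the first comparison and the DEX + TE arrays with the comparison of DEX + TE with DEX. The members were chosen with high H2-Aa on these control arrays known, so here too the counts are a description. The actin ratios of the control and DEX + TE arrays did not overlap either, and their part was not tested. Limma called 0 of the 11, beside 0.379% of all, and Rank Product 0, beside 0.376% of all. With no adjustment, 3 were lower at p under 0.05, beside 5.84% of all probe sets, and 1 was higher, beside 7.95%. The lower ones were H2-Aa 1435290_x_at, H2-Aa 1438858_x_at and Cd74, with log2 fold changes of −1.71 ± 0.38 (SE), −1.86 ± 0.55 and −1.05 ± 0.38. The higher one was Ciita 1421210_at. Each DEX + TE mouse was below each control mouse for 5 of the 11, the H2-Aa, H2-Ab1 and Cd74 probe sets other than H2-Aa 1452431_s_at, where 10.3% of all were so ordered. Each was above for 1, Ciita 1421210_at (12.4% of all). The filter kept that probe set through the DEX + TE group alone and H2-Ab1 1451721_a_at through the control group alone, so nothing is read from either. H2-Eb1 had a log2 fold change of −0.86 ± 0.78 and H2-DMa of −0.26 ± 0.20. The median over the 8 genes was −0.56 (−0.86 over the tested members, without H2-Ob), beside 0.02 over all genes tested. Across the 3 groups, then, H2-Ab1 and Cd74 were highest in the control mice, and the DEX and DEX + TE mice, neighbours in that order, overlapped.

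The members did not all vary together. Over the 9 arrays the log2 signals of the brightest probe sets of H2-Aa, H2-Ab1, H2-Eb1 and Cd74 had Pearson r of 0.83 to 0.96 for the 6 pairs. With the group means taken out, the r were 0.70 to 0.96 over the 9 arrays pooled. This did not hold within each group. In the DEX + TE mice Cd74 ran opposite to H2-Aa, H2-Ab1 and H2-Eb1. Its signals there were 295, 223 and 325, against 343, 421 and 294 for H2-Aa 1435290_x_at. H2-DMa had r of −0.69 to −0.31 with these 4 genes after the group means were taken out. These are descriptions over arrays that also share their scaling and RNA quality, and DEX replicate 1 is the farthest array in them. The 10 other genes whose log2 signals followed the mean of the 4 most closely over the 9 arrays had r of 0.95 to 0.99. They were Ston2, Srsf2, Postn, Atp5pb, Mrpl13, Sparcl1, Col6a3, Ank2, Lum and Lynx1.

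Genes that work with the class II molecules were described from lists written with earlier results of these arrays known, with the brightest probe set of each gene. Of 14 tested genes for processing, partner chains and costimulation, limma called 0 in each of the 3 comparisons, where 0.6%, 0.00732% and 0.454% of all genes tested were called. Lgmn, a lysosomal protease that cuts antigens and the invariant chain, was lower in the DEX group at an unadjusted p under 0.05, the only one of the 14, where 9.15% of all genes were lower at that level. Its signals were 369.6, 502 and 404 in control mice, 194, 233 and 232 in DEX mice and 308, 280.0 and 365 in DEX + TE mice, with no overlap between groups. The log2 fold changes were −0.95 ± 0.16 (SE) for DEX against control and 0.53 ± 0.16 for DEX + TE against DEX, with limma adjusted p of 0.0636 and 0.535. Ctss, the protease that completes the removal of the invariant chain, had signals of 239.8 to 700.2, 294 to 369 and 482 to 489, and a log2 fold change of −0.55 ± 0.37 for DEX against control. Ifi30, a thiol reductase that unfolds antigens, had a log2 fold change of −0.17 ± 0.24. The median of the 15 measured genes was −0.0039 for DEX against control and 0.04 for DEX + TE against DEX.

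None of the 11 tested genes for the factors that bind the promoter module was called by limma in any comparison. Of these, Creb1, which binds the X2 box, was the only one with an unadjusted p under 0.05 for DEX against control, where 9.15% of all genes were lower at that level, at −0.41 ± 0.13 (SE; limma adjusted p = 0.221). Rfx5, a subunit of the X box complex, was at 0.16 ± 0.16 and Nfya, a subunit of the Y box factor, at −0.08 ± 0.29. The cytokine Ifng, which induces Ciita, exceeded 50 on 1 of 9 arrays. Of the 10 tested genes of its signaling, limma called 0. The receptor chain Ifngr1 and the kinase Jak1, 2 of the 10 beside the same 9.15% of all genes, had unadjusted p under 0.05, with log2 fold changes of −0.41 ± 0.16 and −0.37 ± 0.08 for DEX against control (limma adjusted p = 0.301 and 0.117). Against control, the DEX + TE mice had a Jak1 value of −0.47 ± 0.08 (limma adjusted p = 0.0812).

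MHC class I genes, which present peptides from inside any cell, had smaller differences for DEX against control than H2-Aa, H2-Ab1 and H2-Eb1 by value. Those class II genes were chosen with low H2-Aa in that comparison known, so nothing is read from this. Of 16 tested class I genes limma called 0 in each comparison. With no adjustment, 6 had a p under 0.05 for DEX against control and all 6 were lower, beside 9.15% of all genes. The heavy chain gene H2-K1 had a log2 fold change of −0.39 ± 0.15 (SE), its light chain B2m −0.44 ± 0.18 and the peptide-loading chaperone Tapbp −0.49 ± 0.14. Nlrc5, the class I counterpart of Ciita, had signals of 60.2, 93.0 and 125 in control mice, 66.5, 42.6 and 31.3 in DEX mice and 89.8, 75.7 and 95.0 in DEX + TE mice. Its log2 fold change was −0.99 ± 0.34. The other two were Psme1, a proteasome activator subunit, at −0.43 ± 0.13, and Pdia3, a chaperone of heavy chain folding, at −0.33 ± 0.13. The median of the 16 genes was −0.36 for DEX against control, 0.20 for DEX + TE against DEX and −0.04 for DEX + TE against control. Heavy chain probe sets can bind transcripts of near-identical class I genes.

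Markers of the cells that use class II genes were set beside the members. Of 13 macrophage markers limma called 0 in each comparison. For DEX against control the median was −0.72, 9 of the 13 being lower by value, as were 7441 of all 13662 genes tested. Mrc1 and the complement gene C1qa were lower with an unadjusted p under 0.05 (2 of 13, beside 9.15% of all genes). For DEX + TE against DEX the median was 0.69, 11 being higher by value, as were 7836 of all 13662 genes tested. Of the 13, 5 had an unadjusted p under 0.05 (Adgre1, Csf1r, Mrc1, C1qa and Cx3cr1), beside 5.96% of all genes that were higher at that level. The DEX + TE arrays also had higher median signals than the DEX arrays. Centring the arrays on their medians moved the median over all genes tested from 0.04 to −0.22, and the marker values here are not centred. For DEX + TE against control the median was 0.09, and none of the 13 was lower at p under 0.05 (0, beside 6.78% of all genes). Csf1r, the growth factor receptor of macrophages, had signals of 457, 797 and 808 in control mice, 434, 488 and 588 in DEX mice and 787, 857 and 775 in DEX + TE mice. Mrc1, a mannose receptor of resident macrophages, had means of 282 ± 110.3 (SD, n = 3), 152 ± 33.1 and 271 ± 46.8. The summed signal of the 13 markers was 2034 to 3217 in control mice, 1939 to 2529 in DEX mice and 2762 to 3168 in DEX + TE mice. On this sum the DEX + TE mice overlapped with the control mice and were above the DEX mice. For single markers they were above all DEX mice in 3 of 13, where 1329 of all 13662 genes tested were so ordered.

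**Figure D4:**
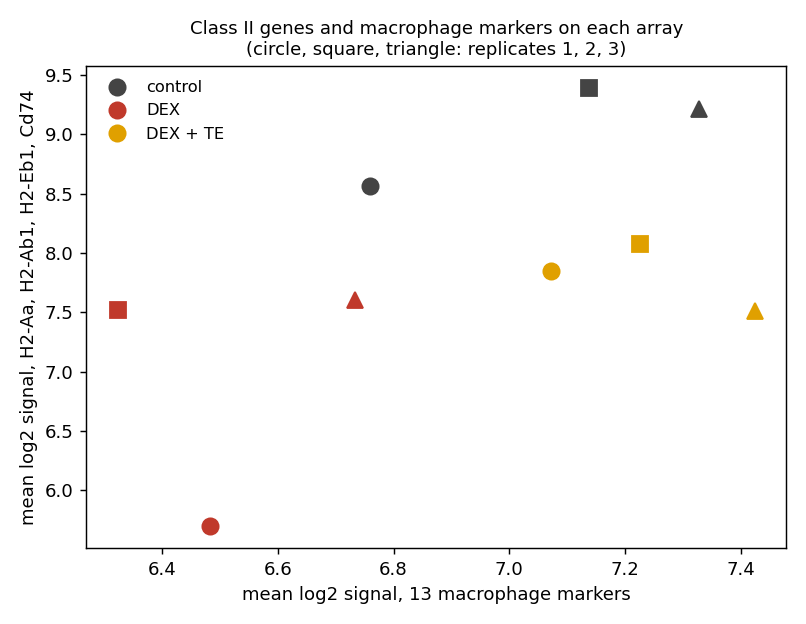
Mean log2 signal of H2-Aa, H2-Ab1, H2-Eb1 and Cd74 (vertical axis) against the mean log2 signal of 13 macrophage markers (horizontal axis), each point 1 mouse. On the vertical axis the control mice lie at 8.57 to 9.39, the DEX mice at 5.70 to 7.60 and the DEX + TE mice at 7.51 to 8.08. On the horizontal axis the control mice (6.76 to 7.33) and the DEX + TE mice (7.07 to 7.42) overlap. The DEX mice (6.32 to 6.73) lie below both there.

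Within each array, the mean log2 signal of the 4 class II genes minus that of the 13 macrophage markers was 1.81, 2.26 and 1.89 in control mice, −0.79, 1.20 and 0.87 in DEX mice and 0.78, 0.85 and 0.08 in DEX + TE mice. The 4 genes were taken with their higher control signal known, and H2-DMa, H2-Oa, H2-Ob and Ciita are not in the mean, so the higher difference in control mice is a description and nothing is read from it. The part of macrophages in the class II values was not tested.

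Of the 6 tested dendritic cell markers, limma called 0 in each comparison. The integrin Itgax had means of 82.1 ± 47.1 (SD, n = 3), 65.3 ± 22.0 and 72.6 ± 42.9, and the transcription factor Zbtb46, also used by endothelium, 231 ± 20.7, 169 ± 46.1 and 252 ± 39.3. The defining chemokine receptor Ccr7 of migrating dendritic cells was at 2.59 to 7.83 on the 9 arrays. The summed signal of the 8 dendritic cell markers measured was 418 to 637, 352 to 537 and 580.4 to 679 in the control, DEX and DEX + TE groups. For 7 B cell markers it was 359 to 595, 255 to 497 and 472 to 579, and for 7 T cell markers 241 to 303, 198 to 361 and 259.7 to 349. Limma called 0 of the 4 tested B cell markers and 0 of the 3 tested T cell markers in each comparison. Rank Product called 1 of those 3 lower for DEX + TE against control, Cd3g of the T cell receptor complex, beside 17 of all 13662 genes. Its signals were 43.1 to 60.8 in control mice, 2.54 to 56.1 in DEX mice and 3.74 to 37.2 in DEX + TE mice. Cd3g was kept by the filter through the control group alone, so nothing is read from this call. Fibroblasts make the matrix. Of the 6 fibroblast markers all were lower by value for DEX against control (median −0.92), as were 7441 of all 13662 genes tested. All 6 were higher for DEX + TE against DEX (median 0.49), as were 7836 of all. For DEX + TE against control 5 of 6 were lower, all but Pdgfra, as were 6366 of all. Limma called 2 of them lower for DEX against control, where 0.6% of all genes were called in either direction, the collagen genes Col1a1 and Col3a1, with log2 fold changes of −1.85 ± 0.25 (SE; adjusted p = 0.0360) and −2.77 ± 0.26 (adjusted p = 0.0114). Limma called 0 of the 8 muscle fiber markers. By value their median was −0.45 for DEX against control, and 8 of 8 were lower at an unadjusted p under 0.05, beside 9.15% of all genes. All 8 were highest on control replicate 1 and lowest on DEX replicate 1, with signals of 39483 to 88659. They are therefore not separate results, and the part of array scaling was not tested. For 6 of 8 each DEX mouse was below each control mouse, where 1863 of all 13662 genes tested were so ordered. Markers of adipocytes went the other way, with a median of 1.22 over 3 genes. For DEX + TE against control limma called 1 of the 6 fibroblast markers lower, Col3a1, at −2.04 ± 0.26 (adjusted p = 0.0335). It called 1 of the 3 adipocyte markers higher, the hormone Adipoq, at 2.19 ± 0.26 (adjusted p = 0.0261). Of all genes tested, 0.454% were called in either direction there. The part of these cell types in the class II values was not tested.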

How the data were processed

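Each array was deposited by the authors as 1 linear intensity per probe set, with the mean of each array, 2% trimmed at each end, at 500. Per the methods, arrays were summarised by Robust Multi-array Average. That method gives log2 values, so the deposited ones are another summary, and the sources used here do not name its program. The 64 control probe sets were left out. Symbols came from the array's annotation. Of 34945 probe sets with 1 symbol, 34741 were found in RefSeq of GRCm38.p6 by Entrez number and 0 symbols changed. The log2 was taken without an offset, and probe sets were kept where at least 1 group mean reached log2 of 50. Limma 3.58.1 in R 4.3.3 (lmFit, eBayes, 3 group means on 9 arrays, Benjamini-Hochberg over 29269 probe sets) was the test, and Rank Product (100 permutations) in Python 3.11.15 with numpy 2.4.6 and pandas 2.3.3 an alternative. The limma step was tested on simulated data. Gene lists used the brightest probe set of a gene. A fold against a group below 50 on every array was taken over 50. All members are named. From other lists the called genes and defining markers are named, and the genes most like the members are the 10 with the highest r. Uncalled genes of the lists were picked after their values were seen. The members, lists and rules were chosen with earlier results of these data known. Figures were drawn with matplotlib 3.10.9. Precision is limited by 3 arrays per group.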

Additional observations from a re-analysis of the deposited data

How the results depend on the processing

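For DEX against control, the count of class II probe sets called was 1 and became 0 with no filter on low signal, 0 in the fit of only the 6 arrays compared, 0 with Rank Product and 4 with a mean-variance trend, which added H2-Aa 1438858_x_at, H2-Ab1 1450648_s_at and Cd74. Leaving out 1 array gave 0 to 1, the call without control replicate 2 being Ciita 1421210_at. For DEX + TE against control it was 0 and became 1 with a mean-variance trend (H2-Aa 1435290_x_at) and 0 to 1 without 1 array, and for DEX + TE against DEX it was 0 in all settings. The median log2 fold change of the genes kept its sign in every setting, at −1.36 to −1.01 (DEX against control), 0.41 to 0.88 (DEX + TE against DEX) and −0.68 to −0.33 (DEX + TE against control) without 1 array, and −0.33 without DEX + TE replicate 3. The filters on signal give no other median, since it is taken over all 8 genes. Same-numbered arrays had correlations of deviations of −0.02 to 0.05, so the numbers do not pair the mice. With the replicate block H2-Aa 1435290_x_at kept its call, the count was 1, and no other count changed. For DEX + TE against DEX, the log2 fold change of H2-Aa 1438858_x_at was −0.014 with an offset of 16, −0.23 with arrays centred and −0.17 with quantile normalization, that of H2-Ab1 1451721_a_at −0.15 and −0.19 with the latter 2, and that of H2-Oa −0.17 and −0.18. Without 1 array the ranges that crossed 0 were −0.65 to 0.44 for H2-Aa 1438858_x_at, −0.41 to 0.74 for H2-Ab1 1451721_a_at, −0.020 to 0.25 for H2-Oa, −0.085 to 0.60 for Cd74 and −1.22 to 0.48 for Ciita 1447075_at. They were −0.15 to 1.18 for H2-Aa 1443783_x_at (DEX against control), and −0.75 to 0.57 for it and −0.42 to 0.88 for H2-Ab1 1425477_x_at (DEX + TE against control). The cause was not tested.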

Other observations

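With the group means taken out, the 10 genes outside the family whose log2 signals followed the mean of H2-Aa, H2-Ab1, H2-Eb1 and Cd74 most closely over the 9 arrays were Dock4, Kif1c, Ston2, Sfpq, Abhd2, Sugp1, Gsn, Sgk3, Cxcl12 and Yars, with Pearson r of 0.96 to 0.98. Ston2 was the only one also among the 10 found with the group means left in. These are the highest of 13662 genes over 9 arrays and are given as a description.

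The probe sets shared between H2-DMb1 and H2-DMb2 had signals of 9.40 to 67.9 over the 9 arrays, and that shared between H2-Ob and a predicted gene 2.91 to 10.4. A probe set of H2-DMb2 alone, 1419744_at, had signals of 83.4 to 217, with log2 fold changes of 0.19 ± 0.37 (SE) for DEX against control and 0.45 ± 0.37 for DEX + TE against DEX. H2-Ea, whose gene is known to be defective in this strain, had signals of 8.59, 28.6 and 6.31 in control mice, 18.3, 9.90 and 33.7 in DEX mice and 35.9, 55.4 and 55.1 in DEX + TE mice, where 2 arrays were above 50.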
